A study of Mus musculus with 209 samples.

Results

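The F-box genes described here are the mouse genes whose symbols begin with Fbxl, Fbxo or Fbxw followed by a number. Of the 24450 genes in the table of oocyte and 2-cell counts, 78 were members by this rule. They comprise 14 Fbxw genes numbered 13 or higher, called the oocyte Fbxw genes below, 63 other F-box genes (18 Fbxl, 37 Fbxo and 8 lower-numbered Fbxw), and the antisense entry Fbxl12os. The series profiles DNA methylation, hydroxymethylation and RNA in mouse embryos and germ cells, and 54 of its 209 samples carry the RNA counts used here. Of these, 19 were single MII oocytes (eggs arrested in the second meiotic metaphase) labelled N14 maternal KO and 14 were WT oocytes, collected 14 to 15 h after hCG. Another 9 were 2-cell samples labelled N14 maternal KO and 8 were WT 2-cell samples, collected 42 to 43 h after hCG. Embryos came from superovulated C57BL/6 females aged 6 to 8 weeks mated with C57BL/6 or PWK males. The father of these particular 2-cell samples is not given in the labels, and neither is the allele or the way the knockout was made. N14 was read as Nlrp14, a maternal NLR-family gene of the oocyte. The remaining 4 samples were WT epiblast of C57BL/6 parents, 2 labelled IVC and 2 collected at E6.5 and labelled ND, where the labels explain neither IVC nor ND.

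F-box proteins are the substrate receptors of SCF ubiquitin ligases. The F-box binds Skp1, Skp1 binds the scaffold Cul1 with the RING protein Rbx1, and the rest of the F-box protein recruits the substrate through WD40 repeats (Fbxw), leucine-rich repeats (Fbxl) or other domains (Fbxo). In eggs and early embryos the best-known members act through another ubiquitin ligase, the anaphase-promoting complex (APC/C): Fbxo43 (Emi2) inhibits it to hold the egg at metaphase II, and Fbxo5 (Emi1) inhibits it in interphase. Mouse chromosome 9 also carries a cluster of closely related Fbxw genes known for expression in the ovary and oocyte, with substrates that are mostly unknown.

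RefSeq lists 13 of the 14 oocyte Fbxw genes on chromosome 9 in 1 cluster, in the order Fbxw21, Fbxw13, Fbxw20, Fbxw14, Fbxw28, Fbxw22, Fbxw16, Fbxw19, Fbxw15, Fbxw24, Fbxw18, Fbxw26 and Fbxw27. Of the protein-coding genes between the outermost of them, 2 (Fbxw23 and Fbxw25) were not among the counted genes, and 0 of the counted ones were anything other than Fbxw. The remaining one, Fbxw17, is on chromosome 13. Promoter windows of RefSeq (GRCm38.p6, 250 bases before to 50 after the gene start) were matched for 57 members, among them 10 of the 13 cluster genes. These 10 windows were close copies of each other. Pairwise identity over the 45 pairs ran from 83.5% (Fbxw16 with Fbxw20) to 97.0% (Fbxw14 with Fbxw28), with a median of 90.8%, and the longest run shared by all 10 was 12 bases. Because the genes are such close copies, reads may have been shared or dropped among them, and how the authors counted reads that fit several genes is not given in the sources used here.

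The stretches of 5 of these promoters are printed because they carry the features that the cluster shares and show where Fbxw20 departs from it. Each is the 180 bases ending directly before the gene start, on the minus strand of GRCm38.p6, read 5′ to 3′: chr9:109626060-109626239 for Fbxw24, chr9:109339660-109339839 for Fbxw28, chr9:109495855-109496034 for Fbxw19, chr9:109449141-109449320 for Fbxw16 and chr9:109234755-109234934 for Fbxw20. Capitals mark CAGCTG, a form of the E-box CANNTG, and TTTAAAA, an AT-rich word.
Fbxw24: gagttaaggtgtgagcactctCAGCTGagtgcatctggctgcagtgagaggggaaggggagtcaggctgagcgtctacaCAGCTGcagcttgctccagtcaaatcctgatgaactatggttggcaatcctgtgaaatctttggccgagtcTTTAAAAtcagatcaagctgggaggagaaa
Fbxw28: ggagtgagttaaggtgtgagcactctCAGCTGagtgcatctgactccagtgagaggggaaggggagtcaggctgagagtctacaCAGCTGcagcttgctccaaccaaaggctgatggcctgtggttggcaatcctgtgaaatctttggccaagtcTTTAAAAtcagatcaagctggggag
Fbxw19: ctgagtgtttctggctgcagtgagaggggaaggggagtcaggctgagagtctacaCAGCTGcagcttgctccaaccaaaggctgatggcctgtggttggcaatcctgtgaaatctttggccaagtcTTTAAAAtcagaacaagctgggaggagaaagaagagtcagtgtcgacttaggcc
Fbxw16: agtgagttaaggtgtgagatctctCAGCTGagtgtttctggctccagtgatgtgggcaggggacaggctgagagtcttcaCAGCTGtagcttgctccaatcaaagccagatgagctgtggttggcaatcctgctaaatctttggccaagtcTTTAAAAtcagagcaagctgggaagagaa
Fbxw20: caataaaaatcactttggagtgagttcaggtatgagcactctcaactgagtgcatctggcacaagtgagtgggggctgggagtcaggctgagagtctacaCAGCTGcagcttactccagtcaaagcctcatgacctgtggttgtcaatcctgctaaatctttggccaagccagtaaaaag
CAGCTG, which reads the same on both strands, was present in 10 of 10 cluster windows, in 9 of the 46 windows of the other F-box genes and in 16.3% of all 32851 promoter windows. TTTAAAA, searched on both strands, was present in 9 of 10 cluster windows, all but that of Fbxw20, against 7 of the 46 others and 8.74% of all windows. In the 9 windows with both, the distance between the last CAGCTG and TTTAAAA was 71 bases in each, although the last CAGCTG itself began between 81 and 125 bases before the annotated start. A second CAGCTG lay in 9 windows, while Fbxw20 had 1. That of Fbxw19 began 183 bases before the start, outside the bases printed, so its stretch shows 1. The word GGGCGG, searched on both strands, was in 1 of 10 cluster windows, 32 of the 46 others and 35.7% of all. The wider word CANNTG, which includes CAGCTG, was in 10 of 10 cluster windows and in 72.3% of all. The marked words are ones the cluster windows share, and these windows are close copies. Their counts and the common spacing are therefore not separate observations, and the shares of other promoters stand beside them as description only. A match is a description of the letters, not evidence of a bound factor.

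Totals per library were between 4585916 and 10637866 counts in KO oocytes, 3933604 and 13052327 in WT oocytes, 2704050 and 15007301 in KO 2-cell samples and 3788348 and 10303580 in WT 2-cell samples. Levels are given as CPM, the count scaled to the library total. Library content, which the labels do not describe, split the oocytes into sets: 7 KO and 10 WT libraries held ERCC spike-in RNA above 0.01% of counts, as did every 2-cell library, 10 KO and 3 WT libraries did not and had the ribosomal RNA gene Rn45s under 1% of counts, and 2 KO libraries and 1 WT library had neither property. Genotypes were compared within the spike-in and within the low-rRNA libraries. The 2-cell libraries differed in content as well. In KO, Rn45s was 0.513 to 0.935% and spike-in RNA 0.0478 to 0.0957% of counts. In WT they were 1.11 to 1.71% and 0.101 to 0.135%, except in replicate 8 (0.621% and 0.0583%). The part of this in the KO over WT 2-cell values was not tested. Each library is a single cell with no animal named, so each group counts as 1 sample and no test between groups was possible. Ratios are of pooled CPM, with exact conditional Poisson intervals that cover counting error only, and a gene was called when it reached 2-fold with 10 CPM or more in either pool. Nlrp14 was lower in KO in each comparison, at 46.7 CPM in KO and 392 CPM in WT spike-in oocytes, 24.8 CPM in KO and 647 CPM in WT low-rRNA oocytes, and 63.7 CPM in KO and 260 CPM in WT 2-cell samples, with no overlap between libraries. The 10 oocyte markers (Zp1, Zp2, Zp3 and others) were all detected in every group, while 3 or more of the 9 cumulus and granulosa markers had 0 counts in each oocyte set, and the list summed to between 46.2 and 162 CPM in KO oocytes and between 44.3 and 107 CPM in WT oocytes.

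The 14 oocyte Fbxw genes held most of the counts of the 78 F-box genes in oocytes. Summed over the genes, spike-in KO oocytes held 13745 to 20006 CPM (median 16200), against 6178 to 13458 CPM (median 10044) in spike-in WT oocytes. These were 83.9% of all F-box counts in KO and 75.5% in WT oocytes of this set. The 63 other F-box genes together held 3119 to 3593 CPM in KO and 3162 to 3489 CPM in WT oocytes, so the difference in total F-box level lay in the oocyte Fbxw genes. The summed oocyte Fbxw values of the genotypes did not overlap in the spike-in libraries.

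**Figure D1:**
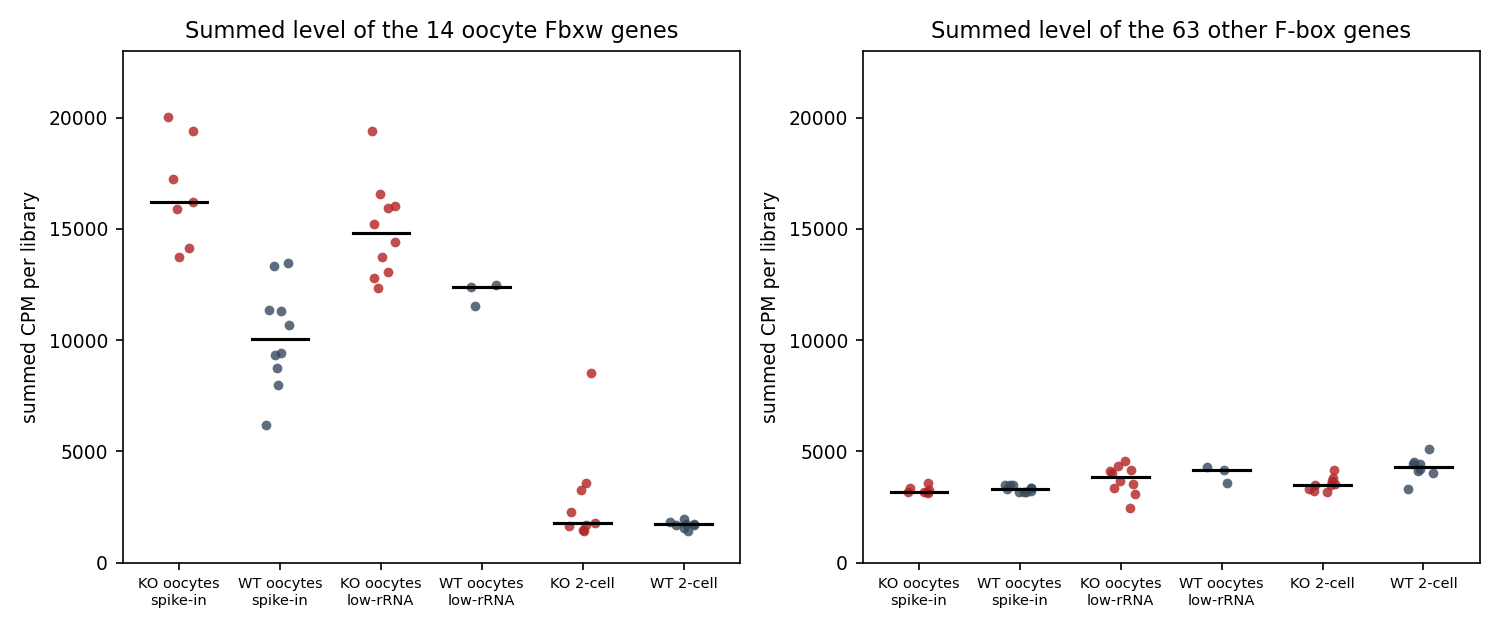
Summed level of the 14 oocyte Fbxw genes (left) and the 63 other F-box genes (right) in CPM; each point is 1 library and each bar the median of its group. Spike-in KO oocytes sit between 13745 and 20006 CPM, above all spike-in WT oocytes, while KO 2-cell replicate 4 stands at 8511 CPM, away from the other 2-cell samples.

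Fbxw24 took the largest share of the oocyte Fbxw counts, 34.7% in KO and 35.5% in WT spike-in oocytes. Fbxw14 took 14.5% in KO and 13.2% in WT oocytes, and Fbxw28 took 14.2% in KO and 14.8% in WT oocytes. These are shares of reads, not corrected for transcript length, so they do not rank the genes by number of molecules. Fbxw17, the member outside the cluster, was close to background, with 4.64 CPM in KO and 4.48 CPM in WT oocytes, and did not reach 10 CPM in any comparison. Among the other F-box genes, Fbxo8 (which carries a Sec7 domain) and Fbxl5 (the receptor that senses iron and targets Irp2) were pooled at 595 and 538 CPM in KO and at 887 and 511 CPM in WT spike-in oocytes. The antisense entry Fbxl12os had 0 counts in spike-in oocytes of either genotype and under 1 CPM in the 2-cell pools.

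In spike-in oocytes, 12 of the 13 cluster genes had a higher pooled level in KO than in WT and 1, Fbxw26, had a lower one, but only Fbxw18 and Fbxw19 reached 2-fold. Fbxw18 ranged from 560 to 1209 CPM (median 807) in KO and from 210 to 534 CPM (median 345) in WT oocytes. The genotypes did not overlap, and the pooled log2 ratio was 1.30 (1.27 to 1.32). Fbxw19 ranged from 636 to 1072 CPM (median 727) in KO and from 258 to 528 CPM (median 352) in WT oocytes, again without overlap, with a log2 ratio of 1.17 (1.152 to 1.196). Fbxw24 was under 2-fold, at 4689 to 6868 CPM (median 5805) in KO and 1881 to 4942 CPM (median 3638) in WT oocytes, with a log2 ratio of 0.70. Here the lowest KO oocytes overlapped the highest WT oocytes. Fbxw14, Fbxw20 and Fbxw28 did not overlap between genotypes and had log2 ratios of 0.87, 0.82 and 0.67. Fbxw26 ran the other way, with 65.1 to 98.7 CPM (median 83.4) in KO, against 75.3 to 225 CPM (median 114) in WT oocytes, and a log2 ratio of −0.56. The 2 of 13 called higher compare with 9.41% of all genes tested that were called higher and 3.69% called lower, and the median log2 ratio of the 13 was 0.67, against 0.07 over all genes.

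The low-rRNA oocytes gave smaller ratios of the same genes. Summed oocyte Fbxw levels were 12348 to 19385 CPM (median 14799) in KO and 11531, 12404 and 12473 CPM in the 3 WT libraries, so the lowest KO oocyte lay within the WT values. No cluster gene reached 2-fold, beside 1.98% of all genes called higher and 2.03% called lower. The median log2 ratio of the 13 genes was 0.32 over genes between −0.04 (Fbxw20) and 0.55 (Fbxw26), and that of all genes −0.02. Fbxw26 was thus lower in KO in the spike-in set and higher in KO in the low-rRNA set, where its 10 KO libraries (203 to 334 CPM, median 243) all lay above its WT libraries (170, 173 and 181 CPM). Fbxw18 and Fbxw19, the called pair of the spike-in set, had log2 ratios of 0.29 and 0.49 here. The summed oocyte markers, at 9103 to 15626 CPM in KO and 6518 to 10033 CPM in WT spike-in oocytes, and at 18112 to 31243 CPM in KO and 19405 to 25442 CPM in WT low-rRNA oocytes, moved in the same direction as the cluster in the spike-in set. Their part in the result was not tested.

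**Figure D2:**
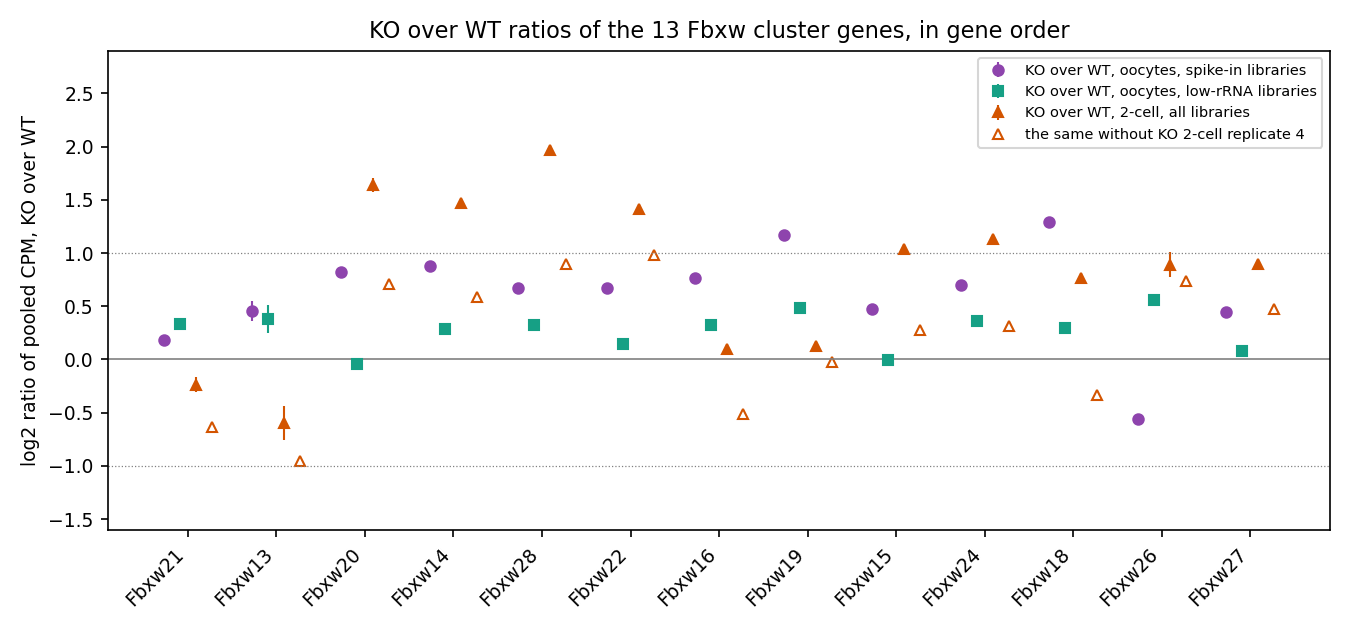
Log2 ratio of pooled CPM, KO over WT, for the 13 cluster genes in their order on chromosome 9; circles are spike-in oocytes, squares low-rRNA oocytes, filled triangles 2-cell samples, and open triangles the 2-cell ratio without KO replicate 4. Bars are 95% counting intervals and dotted lines mark 2-fold. Filled triangles of 6 genes lie above the upper dotted line, and no open triangle does.

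Of the 63 other F-box genes, 28 reached 10 CPM in the spike-in oocytes, of which 4 were called higher in KO and 0 lower, beside 9.41% of all genes higher and 3.69% lower. Fbxo21 ranged from 24.3 to 73.9 CPM (median 51.1) in KO and from 1.03 to 17.2 CPM (median 8.76) in WT oocytes, a log2 ratio of 2.28 (2.16 to 2.41) with no overlap. Fbxl6 ranged from 71.5 to 107 CPM (median 89.2) in KO and from 22.1 to 41.5 CPM (median 28.5) in WT oocytes, with a log2 ratio of 1.65 and no overlap. Fbxo7, whose human counterpart is a parkinsonism gene, had a log2 ratio of 1.06 without overlap (0.96 without WT replicate 9), and Fbxw5, which in human cells limits centriole duplication, one of 1.42 with overlap. In the low-rRNA oocytes 32 of the 63 were compared, where 1.98% of all genes were higher and 2.03% lower. Fbxw5 was called higher (log2 1.37) and Fbxo10 lower (log2 −1.10), and without WT replicate 3 these ratios were 0.84 and −0.86. Fbxw5 was at 3.26 without WT replicate 2. Both overlapped between genotypes. Fbxo21, at 51.9 CPM in the KO and 50.9 CPM in the WT pool, showed no difference of the size seen in the spike-in set. Fbxo43 was pooled at 307 CPM in KO and 247 CPM in WT spike-in oocytes, and at 340 CPM in KO and 350 CPM in WT low-rRNA oocytes. Its level was under 2-fold apart in both sets. Fbxo5, at 81.6 CPM in KO and 69.0 CPM in WT spike-in oocytes, and Fbxo30, which in mouse oocytes is known for a role in meiotic chromosome condensation, at 116 CPM in KO and 97.8 CPM in WT, were also under 2-fold apart.

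From the oocyte to the 2-cell stage the oocyte Fbxw genes were lower. The other F-box genes had a median log2 ratio of 0.82 in WT and 0.21 in KO, near that of all genes (0.69 and 0.15). TMM shifts these ratios by −0.84 in WT and −0.42 in KO, so medians above 0 depend on the scaling. In WT, the summed oocyte Fbxw level was 1430 to 1973 CPM (median 1726) in 2-cell samples. It was 6178 to 13458 CPM (median 10044) in spike-in oocytes, with no overlap and a log2 ratio of −2.54. In WT 2-cell samples the oocyte Fbxw genes made up 29.8% of F-box counts. Of the 13 cluster genes, 11 were called lower and 0 higher, where 12.8% of all genes tested were lower and 42.1% higher. The median log2 ratio was −2.36 for the 13 and 0.69 for all genes. Fbxw28 had the lowest ratio, with 92.2 to 221 CPM (median 125) in 2-cell samples, against 905 to 2143 CPM (median 1469) in oocytes, a log2 ratio of −3.41 (−3.45 to −3.38). Fbxw24 was at 442 to 580 CPM (median 475) in 2-cell samples and 1881 to 4942 CPM (median 3638) in oocytes, with a log2 ratio of −2.83. Both genes were lower in every 2-cell sample than in any oocyte. The uncalled pair were Fbxw19 (log2 −0.98), whose stages did not overlap either, and Fbxw13 (log2 −0.71), whose stages did. Both passed 2-fold once 1 library was left out, Fbxw19 without WT 2-cell replicate 1 (−1.04) and Fbxw13 without replicate 7 (−1.02).

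In KO, all 13 cluster genes were called lower at the 2-cell stage, where 16.3% of all genes were lower and 19.5% higher. The summed log2 ratio was −2.18, and the median of the 13 genes −2.03. Single genes differed in order: Fbxw16 had the lowest ratio in KO (log2 −2.52) and Fbxw26 the highest (log2 −1.35), and Fbxw28 had a log2 ratio of −2.12. KO 2-cell replicate 4 bears on these values, since without it the summed log2 ratio in KO was −2.93 and the order changed: Fbxw18 (−3.48), Fbxw20 (−3.37), Fbxw24 (−3.22) and Fbxw28 (−3.19) then lay below Fbxw16 (−3.13). The stage comparisons are also sensitive to scaling. With TMM normalization the WT stage ratios shift by −0.84 and the KO ones by −0.42 on the log2 scale. All 13 cluster genes are then called lower in both genotypes. The shift is the same for every gene, and shares over all genes were not counted under it.

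**Figure D3:**
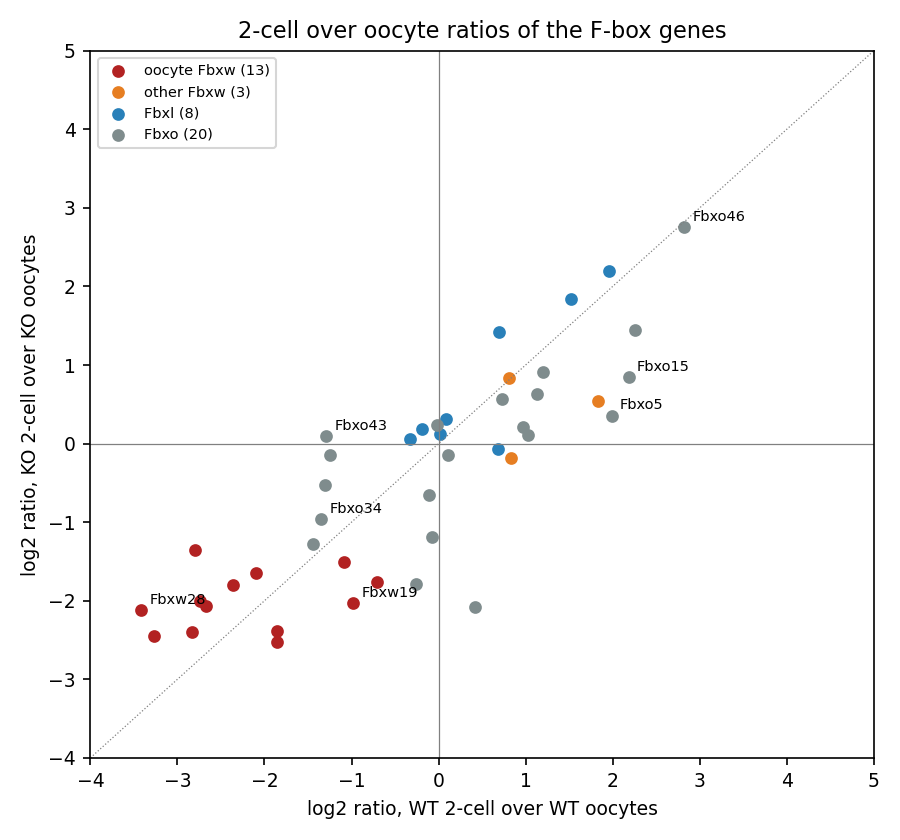
Log2 ratio of pooled CPM, 2-cell over spike-in oocytes, in WT (horizontal axis) and KO (vertical axis) for the 44 F-box genes with 10 CPM or more in both stage comparisons; each point is 1 gene, and the dotted line marks equal ratios. The 13 oocyte Fbxw genes are below 0 on both axes, while Fbxo5 and Fbxo15 lie right of the line of equality and Fbxo43 above it.

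Of the 63 other F-box genes, 38 were compared between WT 2-cell samples and WT oocytes, of which 17 were called higher and 5 lower in 2-cell samples, with a median log2 ratio of 0.82. These shares are close to the 42.1% of all genes called higher and 12.8% called lower, so the counts do not set the family apart. Fbxo5 ranged from 106 to 451 CPM (median 355) in WT 2-cell samples and from 44.0 to 85.2 CPM (median 69.0) in WT oocytes, a log2 ratio of 1.99 with no overlap. Fbxo15, known as a target of Oct4 in embryonic stem cells, ranged from 73.7 to 660 CPM (median 374) in 2-cell samples and from 38.5 to 113 CPM (median 74.6) in oocytes, a log2 ratio of 2.18. Only 1 of its 8 2-cell libraries, replicate 8, lay within the oocyte values. Fbxo17 (log2 4.74, and 5.61 without oocyte replicate 8), Fbxo16 (3.28), Fbxo45 (3.11), Fbxo47 (3.05), Fbxo46 (2.82), Fbxo36 (2.26) and Fbxl14 (1.96), a receptor for the transcription factor Snail1, were also higher. Fbxo6, a receptor for glycoproteins with N-linked glycans, had 447 counts in the 2-cell pool and 1 count in the oocyte pool, a log2 ratio of 9.40 with a counting interval of 6.92 to 14.7.

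Lower in WT 2-cell samples were Fbxo7 (log2 −1.44), Fbxo34 (−1.35), Fbxo25 (−1.31, and −2.04 without 2-cell replicate 8), Fbxo43 (−1.29) and Fbxo9 (−1.25). Fbxo43 ranged from 16.9 to 212 CPM (median 71.8) in WT 2-cell samples and from 217 to 313 CPM (median 245) in WT oocytes, and without WT 2-cell replicate 8 its ratio was −1.91. The 2 APC/C inhibitors therefore ran in opposite directions in WT, with Fbxo43 lower and Fbxo5 higher after fertilization. In KO, 33 of the 63 were compared, of which 6 were higher and 4 lower in 2-cell samples, with a median of 0.21, close to the shares over all genes (19.5% higher, 16.3% lower). The higher ones were Fbxo48 (log2 4.74, and 5.47 without oocyte replicate 15), Fbxo46 (2.76), Fbxl14 (2.20), Fbxl20 (1.84), Fbxo36 (1.45) and Fbxl7 (1.42), and the lower ones Fbxo21 (−2.08), Fbxo30 (−1.78), Fbxo7 (−1.28) and Fbxo38 (−1.18, and −0.95 without KO 2-cell replicate 4). In KO, Fbxo43 had a log2 stage ratio of 0.09 and Fbxo5 one of 0.35, so neither reached 2-fold. Under TMM, 10 of the other F-box genes were called higher and 8 lower in the WT stage comparison. Their 17 and 5 thus depend on the scaling, whereas the cluster genes stayed lower. Shares over all genes were not counted under TMM.

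At the 2-cell stage, KO samples were pooled at 3738 CPM of summed oocyte Fbxw and WT samples at 1755 CPM, a log2 ratio of 1.09, but 1 KO library carried much of this. The KO libraries ranged from 1433 to 8511 CPM (median 1776) and the WT libraries from 1430 to 1973 CPM (median 1726). The medians were close, the lowest values nearly equal, and 8511 CPM belonged to replicate 4, the KO library with the most counts. Without it the KO pool was at 2225 CPM, the highest KO library at 3564 CPM and the log2 ratio 0.34. With all libraries 6 cluster genes were called higher and 0 lower (5.96% of all genes higher, 31.6% lower), and without replicate 4 none was called higher. The oocyte markers summed to 6145 to 29718 CPM (median 13554) in KO and 3732 to 11485 CPM (median 5545) in WT 2-cell samples, and the 2-cell markers to 236 to 2780 CPM (median 870) in KO and 763 to 1789 CPM (median 1550) in WT. The part of these marker levels in the cluster's values was not tested.

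Within the cluster, the genes did not move alike at the 2-cell stage. Fbxw14 ranged from 176 to 1439 CPM (median 255) in KO and from 132 to 295 CPM (median 174) in WT, and Fbxw22 from 117 to 528 CPM (median 204) in KO and from 45.1 to 202 CPM (median 92.1) in WT. For both, 9 of 9 KO libraries lay above the WT median, although the groups overlapped. Their log2 ratios were 1.47 and 1.41, and 0.58 and 0.98 without replicate 4. Fbxw28 had a log2 ratio of 1.97, and 0.90 without replicate 4. Fbxw15 (log2 1.04, and 0.27 without it) was above the WT median in 4 of 9 KO libraries, and its ratio of library medians was slightly negative. Fbxw20 (1.64, and 0.71 without it) and Fbxw24 (1.13, and 0.31 without it) were the other called genes. In contrast Fbxw16 and Fbxw19 had log2 ratios of 0.10 and 0.13, Fbxw21 one of −0.24 and Fbxw13 one of −0.59, and for Fbxw16 only 1 of 9 KO libraries was above the WT median.

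Of the other F-box genes, 40 were compared between KO and WT 2-cell samples, and 4 were called higher and 11 lower in KO. Over all genes 5.96% were higher and 31.6% lower, so the lower calls were no more frequent among these members. The median log2 ratio was −0.20, against −0.35 over all genes. Fbxo43 ranged from 177 to 463 CPM (median 329) in KO and from 16.9 to 212 CPM (median 71.8) in WT, a log2 ratio of 1.70 (1.65 to 1.74), and of 2.31 without WT replicate 8. All 9 KO libraries lay above the WT median, and WT replicate 8 was the only WT library to reach the KO range. Fbxo48 (log2 1.90), Fbxw5 (1.35) and Fbxo7 (1.22) were also higher, each with 9 of 9 KO libraries above the WT median, and Fbxo7 was just under 2-fold (0.98) without KO replicate 4, and Fbxw5 at 2.32 without WT replicate 8. Fbxo5 ranged from 12.9 to 309 CPM (median 115) in KO and from 106 to 451 CPM (median 355) in WT, a log2 ratio of −1.39 with all 9 KO libraries below the WT median (−1.11 without KO replicate 4). Fbxo15 ranged from 41.0 to 529 CPM (median 59.3) in KO and from 73.7 to 660 CPM (median 374) in WT, a log2 ratio of −1.92. A single KO library, replicate 3, held the 529 CPM.

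Further members called lower in KO 2-cell samples were Fbxo47 (log2 −2.41), Fbxo17 (−2.29), Fbxo6 (−2.18), Fbxo45 (−2.11), Fbxo36 (−1.38), Fbxo30 (−1.28), Fbxl21 (−1.04) and Fbxo33 (−1.03). Fbxl21, a receptor for cryptochromes, was at −0.71 without WT replicate 6, and Fbxo33 at −0.87 without KO replicate 4. Fbxo6 was at −3.76 without KO replicate 8. Fbxo45 works with the ubiquitin ligase Mycbp2 in neurons. Fbxo47, known for a role in meiotic prophase, ranged from 1.92 to 25.9 CPM (median 8.09) in KO and from 8.93 to 84.3 CPM (median 57.8) in WT. All 9 KO libraries lay below the WT median, and the groups overlapped. Fbxo30 ranged from 11.8 to 55.2 CPM (median 31.1) in KO and from 34.6 to 166 CPM (median 92.8) in WT. Scaling changes the balance of these calls. TMM moves the KO over WT ratios by 0.46 on the log2 scale, after which 8 of the other F-box genes were called higher and 5 lower, and 9 of the cluster genes higher. WT replicate 8 also bears on these calls, since without it 7 of the other F-box genes were called higher and 16 lower. Shares over all genes were not counted under these alternatives, and the TMM shift is the same for every gene. Of the 17 members called higher in WT 2-cell samples than in WT oocytes, 9 were called lower in KO than in WT 2-cell samples. Both comparisons use the same WT 2-cell libraries, so this overlap is no separate result.

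The allele tables separate maternal from paternal reads in the 2-cell samples, and a paternal read marks a transcript made in the embryo or carried in by sperm. In oocytes they hold no such split, since 0 of 33 oocyte columns had a paternal count. Pooled over the oocyte Fbxw genes, the paternal share was 0.858% (exact Clopper-Pearson 95% interval 0.811 to 0.908) in KO and 0.832% in WT 2-cell samples. The control genes stored in the oocyte (Zp3, Gdf9, Mos and others) had 0.0845% in KO and 0.572% in WT. The median share of single oocyte Fbxw genes was 0.068% in KO and 0.077% in WT, against 3.34% and 21.6% over all genes. Under 1% were 10 of 14 oocyte Fbxw genes in KO and 10 of 13 in WT, against 17 of 49 and 10 of 48 other F-box genes. The number under 1% was not counted over all genes. Among the oocyte Fbxw genes, Fbxw24 had 17 paternal counts of 54426 allele counts in KO and 12 of 16782 in WT. Fbxw28 had 9 of 15464 in KO and 1 of 2522 in WT. Shares of 1% or more were those of Fbxw16 (3.08% in KO, 3.53% in WT), Fbxw14 (1.18% in KO, 1.40% in WT), Fbxw21 and, in KO, Fbxw17 with 2 of 62 counts.

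Fbxw21, at one end of the cluster, stood apart from its neighbours. Its paternal share was 33.5% in KO (31.5 to 35.5) and 7.57% in WT (6.37 to 8.92). Every one of the 9 KO libraries had between 27.3% and 40.4% (median 34.6%). In WT, 4 of 8 libraries had 0 paternal counts, and 116 of the 131 paternal counts came from replicate 8, whose share was 32.5%. Without that library the WT share was 1.09%. Replicate 8 is also the WT 2-cell library with the lowest paternal share over all genes, 4.00%. WT libraries ranged to 24.7% (median 17.8%) and KO libraries from 1.21% to 8.68% (median 3.02%). In library content, too, replicate 8 was the only WT 2-cell library within the KO range, with Rn45s at 0.621% and spike-in RNA at 0.0583% of counts. The part of library content in the Fbxw21 shares was not tested. Fbxw21 was not higher in total level, at 17.4 to 104 CPM (median 38.1) in KO and 48.2 to 94.9 CPM (median 66.8) in WT 2-cell samples. Without Fbxw21, the oocyte Fbxw share was 0.341% in KO and 0.573% in WT. For a gene with near-identical copies, a read assigned to an allele may belong to a copy, and this was not tested.

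**Figure D4:**
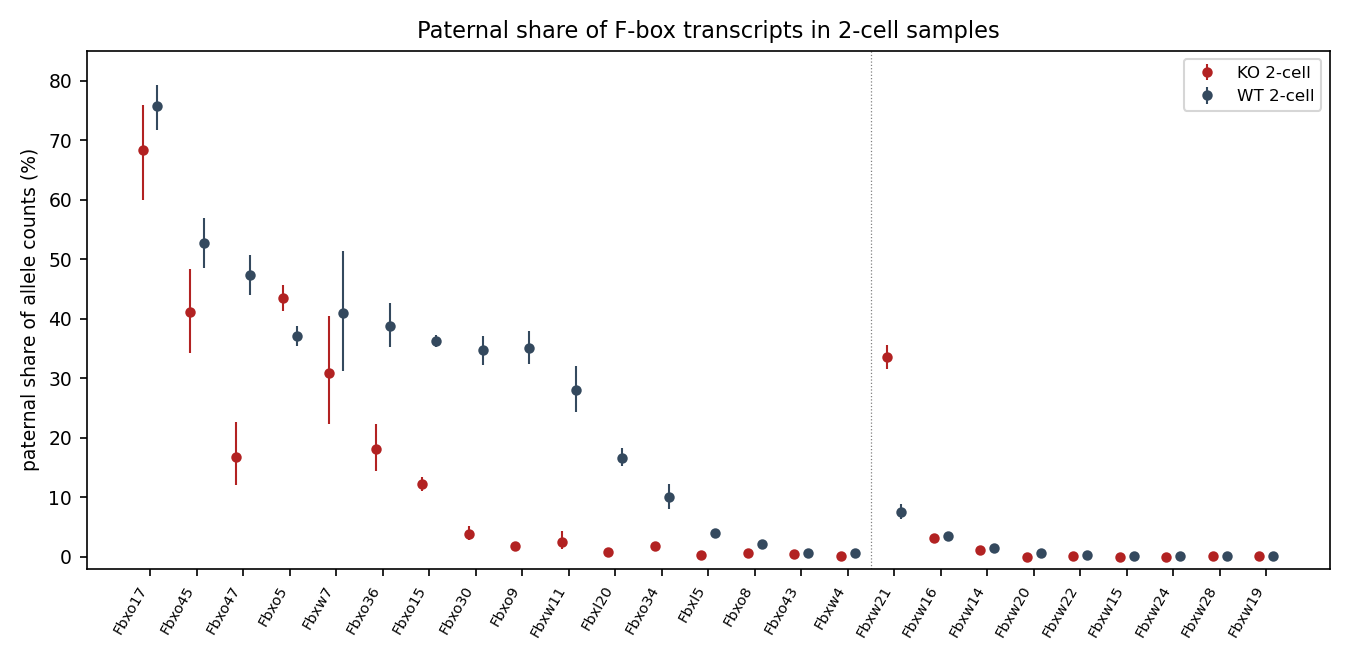
Paternal share of allele-assigned counts in percent, pooled over KO (red) and WT (dark) 2-cell samples, for selected F-box genes; bars are exact 95% intervals for counting error, and the dotted line separates oocyte Fbxw genes (right) from the others. Fbxw21 is at 33.5% in KO and 7.57% in WT, while the remaining oocyte Fbxw genes lie near 0.

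The other F-box genes had a pooled paternal share of 2.77% in KO and 15.8% in WT 2-cell samples, close to the 2.68% in KO and 14.4% in WT over all genes with as many allele counts. The lower shares in KO below are therefore not particular to these genes. The median share of single other F-box genes was 2.41% in KO and 17.4% in WT, against 3.34% and 21.6% over all genes. In KO, 13 of 49 other F-box genes with 50 or more allele counts had a share of 10% or more, against 27 of 48 in WT. Of the 45 with a share in both groups, 34 had the lower share in KO and 8 the higher. These counts were not made over all genes. Fbxo15 had 12.2% in KO and 36.2% in WT, Fbxo30 3.88% in KO and 34.6% in WT, Fbxo9 1.84% in KO and 35.1% in WT, and Fbxl20, a synaptic ligase subunit, 0.753% in KO and 16.6% in WT. These were among the genes with the lower share in KO. Fbxo5 went the other way, at 43.5% (41.3 to 45.7) in KO and 37.1% (35.5 to 38.8) in WT, although its total level was lower in KO. Libraries ranged from 10.9 to 53.3% in KO and from 17.2 to 44.9% in WT, so the groups overlapped. The highest shares in KO were those of Fbxo17 (68.3% in KO, 75.6% in WT), Fbxo6 (64.1% of 64 counts in KO, 42.4% in WT) and Fbxo27 (61.4% of 70 counts in KO, 18.1% in WT). In WT, those of Fbxo44 (82.5% of 57 counts) and Fbxl13 (56.5%) were also among the highest. Fbxo43 was maternal in both groups, with 0.539% in KO and 0.646% in WT, and so were Fbxw4 (0.0636% in KO, 0.679% in WT) and Fbxo46 (0.118% in KO, 1.04% in WT). Fbxo48, called higher in KO, had 13.7% in KO and 0 of 54 allele counts in WT.

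In epiblast, all 13 cluster genes had 0 counts in the 2 IVC and the 2 E6.5 libraries, whose totals were 10377163 and 10241401 counts (IVC) and 11826853 and 24047088 counts (E6.5). The 10 oocyte markers were likewise at 0. Fbxw17 was the only oocyte Fbxw gene detected, at 8.87 and 0 CPM in IVC and 5.50 and 7.82 CPM in E6.5 libraries. Its IVC libraries disagreed, and it did not pass the test (log2 −0.29, edgeR quasi-likelihood adjusted p = 0.95). The other F-box genes persisted, 39 of the 63 with counts in IVC and 58 in E6.5 libraries, at summed levels of 604 and 790 CPM in IVC and 1618 and 1742 CPM in E6.5. Whether a lower level comes from fewer cells of a type or less RNA per cell cannot be told apart in these bulk samples. Each group was also deposited in a table of its own, so any difference between tables cannot be told apart from the difference between groups.

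Of 50 other F-box genes tested, 12 fell in IVC and 0 rose by edgeR (adjusted p under 0.05), where 23.5% of all 11565 genes fell and 12% rose, so the share that fell was close to that of all genes. At an unadjusted p under 0.05 there were 21. The median log2 fold change of the 50 was −2.33, against −0.85 over all genes. Of the 12, 11 had 0 counts in both IVC libraries: Fbxl7, Fbxl16, Fbxo7, Fbxo8, Fbxo16, Fbxo27, Fbxo41, Fbxo44, Fbxo48, Fbxw4 and Fbxw9. A floor of 3 counts over the IVC group covers counting error only. Against it, Fbxo7 was 130-fold lower in IVC (0 and 0 CPM) than in E6.5 (20.3 and 18.3 CPM). Fbxo8 was 118-fold lower (0 and 0 CPM in IVC, 14.7 and 18.5 CPM in E6.5). Fbxw8, which works with Cul7 in place of Cul1, was the only called gene with counts in IVC, at 12.8 and 24.4 CPM in IVC and 132 and 126 CPM in E6.5, a log2 fold change of −2.53 (SE 0.52, edgeR adjusted p = 0.040). The IVC libraries detected 8380 and 8990 genes, against 13101 and 13698 in E6.5. In them 828 and 554 genes stood at 0 counts while the other IVC replicate had 10 CPM or more, against 1 and 0 genes in E6.5, and the part of this in the genes at 0 was not tested. The calls depend on the fit. With a replicate block 0 of the 12 remained, where 361 of all 11565 genes fell and 893 rose. When only genes with no count were left out 0 remained, where 631 of 14997 genes fell and 965 rose. Leaving out a library leaves 1 in its group. The median log2 fold change of the other F-box genes was then −2.69 (without IVC 1), −7.12 (IVC 2), −2.47 (E6.5 1) and −2.70 (E6.5 2). Over all genes these medians were −1.71, −2.57, −1.08 and −0.90.

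**Figure D5:**
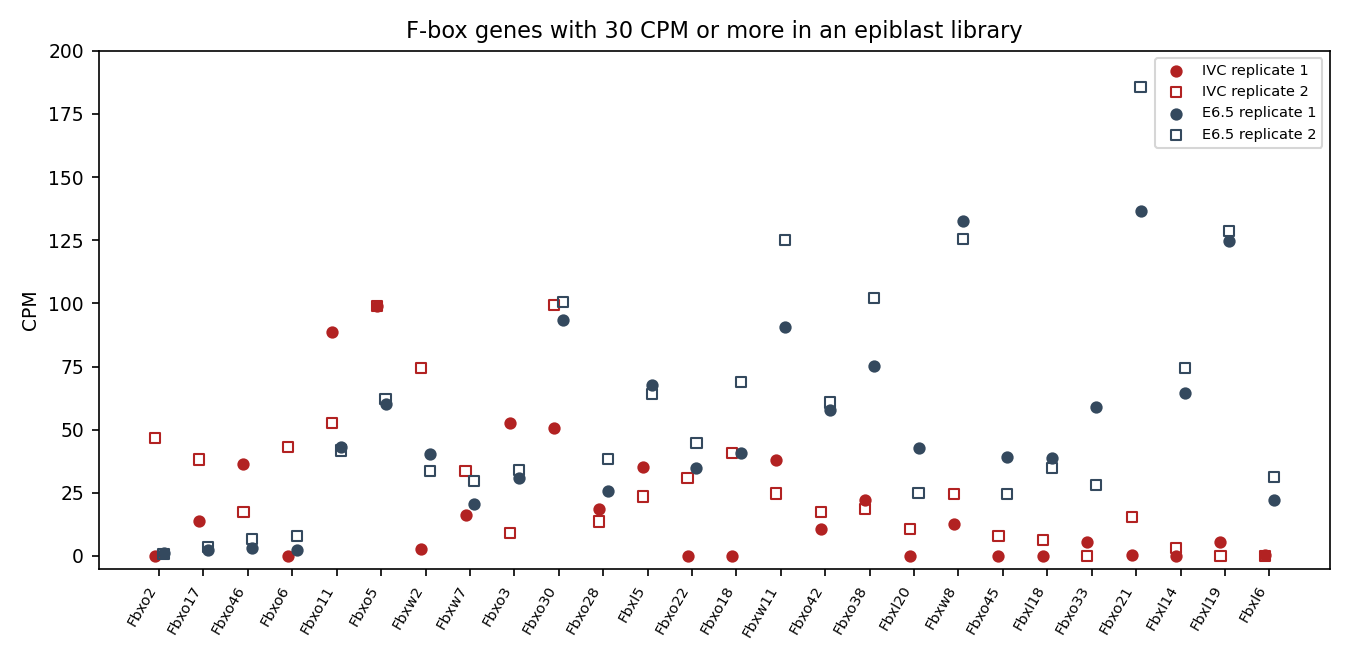
CPM of 26 F-box genes that reached 30 CPM in at least 1 epiblast library, ordered by their IVC over E6.5 ratio; red marks are the 2 IVC libraries and dark marks the 2 E6.5 libraries, with a filled circle for replicate 1 and an open square for replicate 2. Fbxo5 is at 98.9 and 98.8 CPM in IVC and 60.1 and 62.3 CPM in E6.5, while Fbxw8 is lower in both IVC libraries.

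Some of the other F-box genes had both IVC libraries above both E6.5 libraries, but none of these passed the test. Fbxo5 was at 98.9 and 98.8 CPM in IVC and 60.1 and 62.3 CPM in E6.5 (log2 0.96, SE 0.33, edgeR adjusted p = 0.10), and Fbxo46 at 36.5 and 17.4 CPM in IVC and 3.30 and 6.70 CPM in E6.5 (log2 2.72, adjusted p = 0.12). Fbxw11 (β-TrCP2), a receptor for phosphorylated β-catenin, was at 38.0 and 24.7 CPM in IVC and 90.5 and 125 CPM in E6.5 (adjusted p = 0.084). Fbxo30 at 50.7 and 99.2 CPM in IVC and 93.5 and 101 CPM in E6.5, and Fbxw7, the receptor for cyclin E and Myc, at 16.2 and 33.8 CPM in IVC and 20.6 and 29.8 CPM in E6.5, overlapped between groups. Epiblast markers summed to 1578 and 1798 CPM in IVC and 4617 and 5340 CPM in E6.5. Of the 7 tested, 1 fell in IVC (Dnmt3b) and 1 rose (Tdgf1, edgeR). Dnmt3b alone held 479 and 396 CPM in IVC and 3508 and 4110 CPM in E6.5. Visceral endoderm markers, from the neighbouring tissue, summed to 539 and 544 CPM in IVC and 27.6 and 33.3 CPM in E6.5. All 6 visceral endoderm markers were tested and 4 of them rose in IVC (edgeR). The part of these cell types in the F-box values was not tested.

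Other genes of the pathway were counted over lists of the ligase machinery. Of the SCF core list (Skp1a, Cul1, Rbx1, the Nedd8 enzymes, Cand and COP9 signalosome genes), 19 members reached 10 CPM in spike-in oocytes and 0 were called in KO against WT (9.41% of all genes higher, 3.69% lower). In 2-cell samples 1 of 21 was higher and 4 lower in KO, where 5.96% of all genes were higher and 31.6% lower. Among the lower ones were Cops6 (8.61 CPM in KO, 43.7 CPM in WT) and Ube2f, a Nedd8-conjugating enzyme (15.1 CPM in KO, 71.4 CPM in WT), while Nae1, a subunit of the Nedd8-activating enzyme, was higher (551 CPM in KO, 244 CPM in WT). From oocyte to 2-cell in WT, 6 of 21 were higher and 4 lower (42.1% and 12.8% of all genes), with Ube2f at a log2 ratio of 4.17. Of the APC/C list, 3 of 14 genes were higher in KO spike-in oocytes, with Cdc26 at 27.8 CPM in KO and 6.47 CPM in WT, and 1 of 15 was lower in KO 2-cell samples, Anapc7. F-box genes with other names gave 1 of 5 higher in KO 2-cell samples, Kdm2b (log2 1.01), and 1 lower, Ccnf (cyclin F, log2 −1.41). Among the other cullin genes, Cul3 was at 53.6 CPM in KO and 377 CPM in WT 2-cell samples (log2 −2.82).

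In epiblast 8 of 24 SCF core genes rose in IVC and 2 fell (edgeR adjusted p under 0.05). Rbx1 was at 1186 and 1298 CPM in IVC and 41.4 and 59.0 CPM in E6.5 (log2 4.91, adjusted p = 0.0040), and Skp1a, the adaptor that binds the F-box, at 1332 and 1589 CPM in IVC and 348 and 341 CPM in E6.5 (log2 2.35, adjusted p = 0.0058). Nedd8 also rose (log2 4.35), while Cand1, the exchange factor that cycles F-box proteins through SCF, fell (log2 −2.30). Of the APC/C list 4 of 16 rose and 4 fell, of the other cullin genes 2 of 9 rose and 3 fell, and of the F-box genes with other names 1 of 6 fell, Skp2, the receptor for p27 (log2 −2.94). These counts stand beside 12% of all genes that rose and 23.5% that fell.

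The genes that flank the Fbxw cluster on chromosome 9 did not move alike. Map4, the fifth gene beyond Fbxw27, was pooled at 245 CPM in KO and 136 CPM in WT spike-in oocytes (log2 0.85), and at 110 CPM in WT 2-cell samples, a WT stage ratio of −0.30. Tma7, before Fbxw21, was at 23.8 CPM in KO and 179 CPM in WT 2-cell samples (log2 −2.92), with a WT stage ratio of 2.00, opposite in sign to that of each cluster gene. Nme6 was at 11.05 CPM in KO and 42.5 CPM in WT 2-cell samples, with a WT stage ratio of 2.69. Cdc25a, a phosphatase that activates cyclin-dependent kinases, was lower at the 2-cell stage in both genotypes, as the cluster genes were, with stage ratios of −2.47 in KO and −1.14 in WT. Of the other flanking genes Plxnb1, Ccdc51, Atrip, Trex1, Spink8 and Camp stayed under 10 CPM in every pool compared.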

How the data were processed

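Single-cell RNA of mouse oocytes and 2-cell samples and bulk RNA of epiblast were measured. The deposited values are raw counts per gene symbol, with no normalization by the authors. Build mm9 and the tools STAR 2.6.0a, cutadapt 1.15, featureCounts 2.0.1, Trim Galore 0.6.6, SAMtools 0.1.18 and HTSeq 0.10.0 are listed in the submitters' processing notes, which do not say what each did. Strand use and the treatment of reads that fit several genes are not given in the sources used here. The 92 ERCC rows were left out of totals.

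Pooled CPM, log2 ratios and exact intervals at 95% were computed in Python 3.11.15 with SciPy 1.17.1. A pool at 0 was set to 3 counts over the group. Paternal shares used genes with 50 or more allele counts in a group. For epiblast, edgeR 4.0.16 in R 4.3.3 gave two-sided quasi-likelihood tests of the counts (TMM, filterByExpr), with Benjamini-Hochberg adjustment over 11565 genes and a threshold of 0.05. The labels do not say that epiblast libraries came from separate embryos, so p-values measure the spread between these libraries. Alternatives were TMM and DESeq2 1.42.0 scaling, other filters, means and medians of libraries, all oocyte libraries together, leaving out each library, and in epiblast DESeq2's Wald test and a replicate block. The ratio procedure and the edgeR fit were tested on simulated counts. Those for the ratios held counting error only, without spread between cells.

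Members and lists were chosen with earlier results of these data known. Named were all oocyte Fbxw genes, up to 10 called members per direction, the 10 with the highest level, the 5 highest and lowest paternal shares, members with a known role in egg or embryo, and up to 4 genes per pathway list. The flanking genes were chosen after the data were seen. Intervals cover counting error only. Another 155 samples were not analysed here, and a member gene is not reported by name. Promoters came from RefSeq (GRCm38.p6).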

Additional observations from a re-analysis of the deposited data

Results flagged for a closer look

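Over 223 combinations of a value and a group of 4 to 10 libraries, 33 had a highest or lowest library set far from the others (Dixon's gap rule at 95%, which chance alone meets in about 1 of 20). All concern levels in CPM.

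KO 2-cell replicate 4 accounted for 8 of these. Its summed oocyte Fbxw level was 8511 CPM, against a group median of 1776. Fbxw24 was at 2633, Fbxw28 at 1471, Fbxw14 at 1439, Fbxw15 at 538, Fbxw18 at 457, Fbxw20 at 372 and Fbxw16 at 282 CPM there. KO 2-cell replicate 3 stood out for Fbxo15 (529 CPM, median 59.3) and Fbxw2 (44.7 CPM).

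Among WT 2-cell samples, replicate 8 stood out for Fbxo43 (212 CPM, median 71.8), Fbxw28 (221), Fbxw22 (202) and Fbxl6 (74.5). Replicate 6 was apart for Fbxw18 (160), Fbxo6 (39.6) and Fbxl21 (39.3), replicate 1 for Fbxl7 (58.9), replicate 3 for Fbxw11 (90.2) and replicate 7 for Fbxw13 (40.4 CPM).

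In spike-in KO oocytes, replicate 17 was apart for Fbxo43 (413 CPM, median 297), Fbxo11 (235), Fbxo34 (190, the lowest), Fbxo28 (148) and Fbxo33 (133, median 36.7), and replicate 13 for Fbxw15 (1163). In spike-in WT oocytes, replicate 6 was apart for Fbxw22 (399, the lowest), Fbxo43 (313) and Fbxw26 (225), and replicate 13 for Fbxo36 (21.2). In low-rRNA KO oocytes the values were Fbxw19 in replicate 7 (2047), Fbxl5 in replicate 5 (216, the lowest) and Fbxw5 in replicate 4 (38.3 CPM).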

How the results depend on the processing

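Depth limits genes under 10 CPM, and with 1 sample per group no ratio of oocytes or 2-cell samples carries replicate error. The stage and 2-cell ratios shift with scaling, by −0.84 (WT stage), −0.42 (KO stage) and 0.46 (KO over WT 2-cell) on the log2 scale under TMM and by −0.93, −0.46 and 0.50 under DESeq2 size factors. The lower level of the cluster at the 2-cell stage kept its direction under each alternative run, while its higher level in KO 2-cell samples lost its calls without KO replicate 4. The causes were not tested.

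Summed oocyte Fbxw log2 ratio: in spike-in oocytes 0.66 (TMM), 0.65 (DESeq2 size factors), 0.71 (mean of libraries), 0.71 (median) and 0.51 (all libraries); in low-rRNA oocytes 0.31 (TMM), 0.31 (DESeq2), 0.29 (median) and 0.51 (all libraries); in KO over WT 2-cell 1.55 (TMM), 1.60 (DESeq2), 0.73 (mean) and 0.22 (median). In the WT stage comparison it was −3.37 (TMM), −3.47 (DESeq2), −2.57 (mean), −2.62 (median) and −2.63 (all libraries), and in the KO one −2.60 (TMM), −2.64 (DESeq2), −2.55 (mean), −3.11 (median) and −2.04 (all libraries). Leaving out 1 library gave 0.69 to 0.80 in spike-in oocytes, 0.25 to 0.33 in low-rRNA oocytes, 0.34 (without KO 4) to 1.22 in 2-cell samples, −2.59 to −2.47 in the WT and −2.93 (without KO 4) to −2.05 in the KO stage comparison.

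For oocytes and 2-cell samples, shares over all genes were counted in the main setting only. Cluster genes called higher in KO were 0 in spike-in oocytes with all libraries pooled. In 2-cell samples they were 2 by medians, and 0 (without KO 4) to 7 when 1 library was left out. Of the other F-box genes, those called higher and lower in spike-in oocytes were 12 and 2 with no filter, 2 and 0 by medians, and 1 and 0 with all libraries, and 2 to 5 were higher with 1 library left out. In low-rRNA oocytes they were 12 and 6 with no filter, 0 and 0 at 20 CPM, 1 and 2 by medians, 1 and 0 with all libraries, and 0 to 1 in each direction with 1 library left out. In KO over WT 2-cell samples they were 8 and 5 by TMM and by DESeq2, 22 were lower with no filter, 2 higher at 20 CPM, and 3 to 7 higher and 7 to 16 lower with 1 library left out (7 and 16 without WT 8). In the WT stage comparison they were 10 and 8 by TMM, 10 and 10 by DESeq2, 35 higher with no filter, 10 higher at 20 CPM and 8 lower with all libraries. In the KO stage comparison they were 20 and 8 with no filter and 3 higher at 20 CPM, and 6 to 10 higher with 1 library left out.

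Paternal shares as means over libraries were 1.05% (KO) and 0.704% (WT) for oocyte Fbxw genes and 3.5% (KO) and 17.4% (WT) for the others, and the KO value of the others was 2.65% at 100 allele counts. Leaving out 1 library gave 0.806 to 1.10% (KO) and 0.593 to 0.883% (WT) for oocyte Fbxw genes and 2.21 to 3.23% (KO) and 14.6 to 19.1% (WT) for the others.

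In epiblast, DESeq2's Wald test called 2 of 54 other F-box genes higher and 20 lower, beside 1753 and 3563 of all 13029 genes. With only countless genes left out 0 of 59 were lower, beside 631 of all 14997 genes. Same-numbered libraries did not deviate together (r = −0.0015 across genes), so replicate numbers were not taken to pair libraries. The replicate block called 0 of the other F-box genes higher and 0 lower, beside 893 and 361 of all 11565 genes. Without 1 library 0 to 7 were higher and 0 to 30 lower. Signs turned for Fbxw15 in 2-cell samples by library medians (−0.0965), and in epiblast between libraries left out: Fbxo3 −1.56 to 1.00, Fbxo6 −5.35 to 3.34 and Fbxw2 −3.49 to 1.25, each lowest without 1 IVC library (IVC 1 for Fbxo3, IVC 2 for the others).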
